A study of Mus musculus with 55 samples.

Results

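The 6 genes Gpam, Agpat2, Agpat3, Lpin1, Dgat1 and Dgat2 encode enzymes that build triglyceride from glycerol-3-phosphate and fatty acyl-CoA. They were chosen by symbol, as every probe set of the array annotated to exactly 1 of them, and number 6 of the 18194 genes with such a probe set. The 6 genes have 13 probe sets, and each gene is described through its brightest set, by the mean of all 55 arrays, unless another is named. All 6 genes passed the brightness filter (a linear signal over 20 in at least 3 arrays), as did 8238 of the 18194 genes.

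Each array measured total RNA of a heart from a male Sv129 mouse that had eaten AIN76A chow made with olive oil, was fasted for 4 h, received 400 µL by gavage and was killed 6 h later. The PPARα-/- mice (129S4/SvJae, written KO) received triolein, trilinolein, trilinolenin, tridocosahexaenoin, Wy14643 (a synthetic PPARα agonist, 10 mg/mL in 0.5% CMC) or CMC alone as control, with 5 arrays in each group. The wild-type mice (129S1/SvImJ, written WT) received the same gavages, with 4, 5, 4, 5 and 4 arrays and 3 controls. The labels give the age both as 9-12 weeks and as 2-6 months, and one field of the controls says that they received nothing. Genotype and substrain changed together between KO and WT hearts and cannot be told apart. The labels name no promoter or cell type for the deletion, and each array holds RNA of all the cells of a heart.

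Triglyceride synthesis runs in steps along the endoplasmic reticulum and outer mitochondrial membrane. Gpam adds the first acyl chain to glycerol-3-phosphate, Agpat2 and Agpat3 add the next, Lpin1 removes the phosphate to give diacylglycerol, and Dgat1 and Dgat2 add the last chain. PPARα is a nuclear receptor activated by fatty acids that, in the heart, is best known for driving genes of fatty acid oxidation. It binds DNA with RXR at direct repeats of the half-site AGGTCA spaced by 1 base.

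The bases just upstream of Gpam, Agpat2 and Lpin1 are shown because these 3 genes passed the test between the genotypes after the control gavage, and the half-site can be looked for in them. Listed starts (RefSeq, GRCm38.p6) were at hand for 4 of the 6 genes, these and Agpat3. Dgat2 passed the same test but had no listed start, so its bases are not shown. Each run covers the 250 bases before a listed start, read 5′ to 3′ on the minus strand, with AGGTCA in capitals.
Gpam, first start, chr19:55127239-55127488: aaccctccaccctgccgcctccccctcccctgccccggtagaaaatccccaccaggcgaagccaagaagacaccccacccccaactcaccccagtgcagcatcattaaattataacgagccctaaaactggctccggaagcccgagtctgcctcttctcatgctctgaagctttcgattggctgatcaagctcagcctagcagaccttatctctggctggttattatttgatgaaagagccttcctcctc
Gpam, other start, chr19:55099478-55099727: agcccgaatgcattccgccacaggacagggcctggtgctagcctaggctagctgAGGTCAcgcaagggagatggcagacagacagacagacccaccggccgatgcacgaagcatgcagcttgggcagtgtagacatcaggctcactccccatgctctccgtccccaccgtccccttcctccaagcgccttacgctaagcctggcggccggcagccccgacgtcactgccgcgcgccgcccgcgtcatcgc
Agpat2, chr2:26604418-26604667: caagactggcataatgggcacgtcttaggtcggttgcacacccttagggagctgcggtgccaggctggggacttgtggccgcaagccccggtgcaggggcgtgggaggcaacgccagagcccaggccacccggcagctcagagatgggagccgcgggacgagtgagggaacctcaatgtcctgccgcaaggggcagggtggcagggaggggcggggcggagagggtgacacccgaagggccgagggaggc
Lpin1, chr12:16610967-16611216: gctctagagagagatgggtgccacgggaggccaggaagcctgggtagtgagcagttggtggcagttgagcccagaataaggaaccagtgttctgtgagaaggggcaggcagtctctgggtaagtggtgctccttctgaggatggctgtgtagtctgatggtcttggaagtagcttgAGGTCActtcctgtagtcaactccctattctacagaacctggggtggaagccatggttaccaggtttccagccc
One AGGTCA stood 196 bases before the other Gpam start and one stood 74 bases before the only listed Lpin1 start. That start lies inside the span of Lpin1 (chr12:16535669-16653903), not at its 5′ end. No AGGTCA, on either strand, lay in the windows of the first Gpam start, Agpat2 or Agpat3. The half-site or its reverse complement TGACCT occurred in 14.0% of 32851 mouse windows of the same length. A pair of AGGTCA in the same direction with any 1 base between them (0.03% of windows, either strand), the E-box CACGTG (6.02%) and the sterol element TCACNCCAC (1.05%, either strand) were in none of the 5 windows of these genes. These are letter matches in short windows and not binding sites.

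The arrays had medians between 2.554 and 2.613 on the log2 scale, and any pair correlated at 0.988 to 0.996. Ppara itself was measured by 3 probe sets, on the clearest of which KO arrays had a median of 5.42 (4.64 to 5.93) and WT arrays a median of 6.63 (5.83 to 7.33), with 29 of 30 KO arrays below all WT arrays. The files do not say which of these probes lie in the deleted part. All 8 cardiomyocyte markers were bright. Of 5 adipocyte markers on the array only Fabp4 was bright, and Adipoq, Cidec, Retn and Lep averaged 2.98, 2.72, 2.32 and 1.71 log2 units, below the filter.

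Gpam differed most between the genotypes. Over all gavages Gpam was 2.84-fold lower in KO than in WT hearts, a log2 difference of -1.50 ± 0.03 (SE, n = 30 and 25, limma adjusted p = 1.254e-38). After the control gavage it measured 9.79, 9.93, 9.92, 9.79 and 9.68 log2 units in KO hearts, against 11.16, 11.24 and 10.92 in WT hearts. All 5 KO values lay below all 3 WT values, as was true of 5.21% of the tested genes. The control difference was -1.28 ± 0.08 (n = 5 and 3, adjusted p = 3.596e-17). Over all gavages the 30 KO arrays spanned 9.50 to 9.93 and the 25 WT arrays 10.65 to 11.57, so the genotypes did not overlap, a pattern that 0.923% of the tested genes showed in that direction. The dimmer Gpam probe set gave a wider difference, -1.77 ± 0.24 after control and -2.39 ± 0.09 over all gavages, again with all 30 KO arrays below all WT arrays. The size of the Gpam difference therefore depended on the probe set, and its direction did not.

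Agpat2, the second-step acyltransferase whose loss causes lipodystrophy in people, was also lower in KO hearts. After the control gavage it measured 7.61, 7.77, 7.66, 7.55 and 7.67 log2 units in KO hearts, against 8.25, 8.23 and 8.18 in WT hearts. These groups did not overlap, and the difference was -0.57 ± 0.11 (adjusted p = 0.0002351). Over all gavages the difference was -0.64 ± 0.04 (adjusted p = 9.542e-19), with KO arrays at 7.36 to 7.85 and WT arrays at 7.89 to 8.76. The gap between the highest KO and the lowest WT array was only 0.039 log2 units, but no array crossed it. Agpat2 has a single probe set.

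Dgat2, one of the 2 last-step acyltransferases, was the third gene that was clearly lower in KO hearts. It measured 8.70, 8.59, 8.40, 8.56 and 8.52 log2 units in KO control hearts, against 9.03, 9.35 and 9.35 in WT control hearts. The ranges were apart, with a difference of -0.69 ± 0.16 (adjusted p = 0.004202). Over all gavages it was -0.66 ± 0.06 (adjusted p = 4.818e-13), and 23 of the 30 KO values were lower than any WT value. Its other probe set gave -0.67 ± 0.16 and -0.70 ± 0.06 for the same comparisons.

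Lpin1, the phosphatidate phosphatase that also acts as a nuclear coregulator, went the other way. Control hearts measured 9.53, 9.47, 9.59, 9.68 and 9.61 log2 units in KO mice, against 9.20, 9.22 and 9.29 in WT mice. The KO values were all higher, which 5.37% of the tested genes showed in that direction. The difference was 0.34 ± 0.10 (adjusted p = 0.03422), and the other Lpin1 probe set gave 0.41 ± 0.10. Without any 1 of the 3 WT controls, or without KO control 3, 4 or 5, the main set gave 0.31 to 0.36 with adjusted p between 0.0602 and 0.15. Averaged over the gavages the difference was 0.25 ± 0.04 (adjusted p = 1.75e-07), with no single array decisive, although only 4 of 30 KO arrays stood above all WT arrays.

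Agpat3, which acylates lysophosphatidic acid and other lysophospholipids, and Dgat1, the other diacylglycerol acyltransferase, differed little on their main probe sets. Agpat3 differed by -0.03 ± 0.08 after control and by -0.17 ± 0.03 over all gavages (adjusted p = 1.606e-05). Its 3 dimmer probe sets gave wider differences in the same direction, at -0.52 ± 0.05, -0.62 ± 0.06 and -0.53 ± 0.09 over all gavages. On these sets 26, 24 and 3 of the 30 KO arrays lay below all WT arrays, against 8 on the main set. The size of the Agpat3 difference therefore depended on the probe set. Dgat1 was dim (KO 5.16 to 6.53, WT 4.95 to 5.85 log2 units) and differed by 0.21 ± 0.20 after control. Over all gavages it was higher in KO hearts by 0.19 ± 0.07 (adjusted p = 0.03642). That call was lost, at 0.15 to 0.18 with adjusted p of 0.0506 to 0.0966, without KO control 1 or 2, KO triolein 1, KO trilinolein 5, KO trilinolenin 1, KO tridocosahexaenoin 4, WT control 3, WT triolein 1 or 3, WT trilinolenin 4, WT tridocosahexaenoin 5 or WT Wy14643 1. The other Dgat1 probe set was below the filter on every array.

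**Figure D1:**
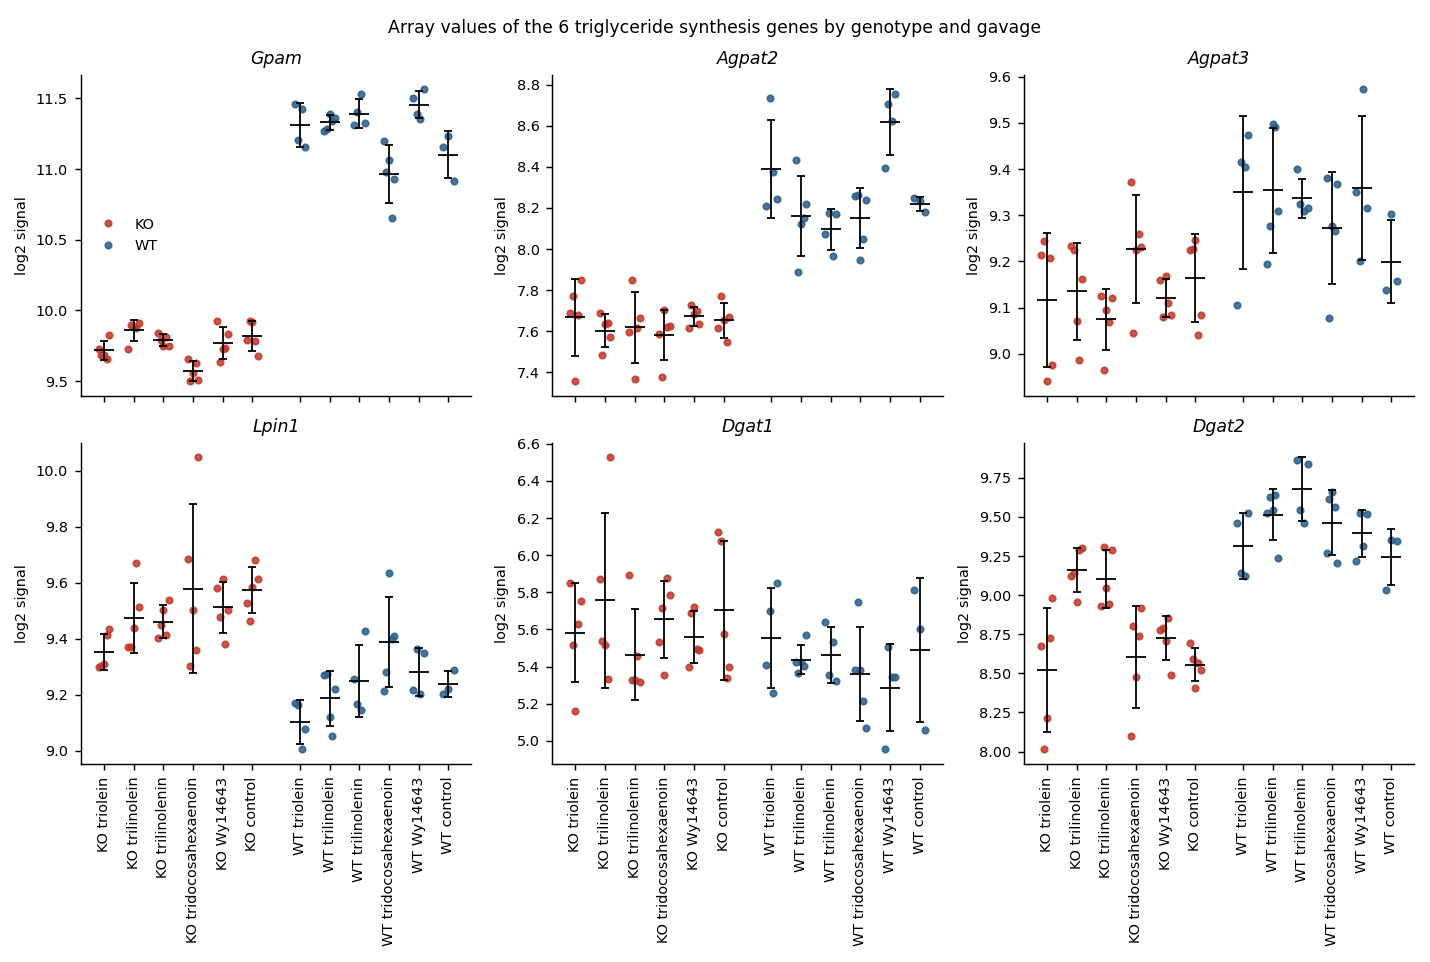
Log2 signal of the 6 genes on each of the 55 arrays (points), by gavage, with KO (PPARα-/-) groups to the left of WT groups and the black bar and whiskers giving the mean and SD (n = 3 to 5 per group). Gpam and Agpat2 separate all 30 KO arrays from all 25 WT arrays, and Dgat2 is raised within KO hearts after trilinolein and trilinolenin.

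Counted together, 4 of the 6 genes passed the test between KO and WT control hearts, 3 lower and 1 higher, where 3.62% of all tested genes did (2.06% lower and 1.55% higher). All 6 passed over the mean of the gavages, 4 lower and 2 higher, where 39.0% of tested genes did (16.1% lower and 22.9% higher). Their median log2 difference over the gavages was -0.41, beside 0.02 for all tested genes. Within single gavages 3 genes passed after triolein (7.93% of tested genes), 4 after trilinolein (9.63%), 4 after trilinolenin (9.54%), 3 after tridocosahexaenoin (9.57%) and 4 after Wy14643 (9.27%). Markers of other cells moved with genotype too: over all gavages Fabp4 was higher in KO hearts by 0.45 ± 0.03, 7 of 8 macrophage markers were higher and 1 lower, and 4 of 7 fibroblast markers were lower. Of 8 endothelial markers 3 were higher, among them Cldn5 by 0.73 ± 0.13 and Kdr by 0.66 ± 0.09, and 2 were lower, among them Tek at -0.16 ± 0.05. The 3′ minus 5′ difference of Actb, a measure of RNA quality, had a higher mean in KO than in WT hearts under each gavage, from 0.799 against 0.793 after control to 0.823 against 0.711 after Wy14643 and 0.705 against 0.593 after trilinolenin. The part of the markers and of RNA quality in these results was not tested. Gpam and Agpat2 were lower in KO hearts after every gavage, and Dgat2 after every gavage but trilinolein, where its difference was -0.35 ± 0.14 (adjusted p = 0.09402).

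The Gpam difference was smallest after control, at -1.28, and reached -1.60 ± 0.08 after trilinolenin and -1.68 ± 0.08 after Wy14643. The Agpat2 difference was -0.95 ± 0.10 after Wy14643, with KO hearts at 7.62, 7.73, 7.68, 7.70 and 7.64 log2 units and WT hearts at 8.39, 8.71, 8.62 and 8.76. KO arrays were nearly level while WT arrays stood well above them. On its main probe set the Agpat3 calls were less stable. After trilinolein (-0.22 ± 0.07, adjusted p = 0.04708) the call was lost without WT trilinolein 3, 4 or 5 or KO trilinolein 3, 4 or 5, with differences between -0.18 and -0.23. After trilinolenin (-0.26 ± 0.08, adjusted p = 0.02134) it was lost without WT 1 (-0.24) or KO 2 (-0.23), and after Wy14643 (-0.24 ± 0.08, adjusted p = 0.03984) without WT 1, 3 or 4 or KO 2, 4 or 5 (-0.17 to -0.25). On the next brightest Agpat3 set KO and WT hearts averaged 6.93 and 7.50 after trilinolein. They averaged 6.71 and 7.35 after trilinolenin, and 7.07 and 7.88 after Wy14643. After triolein the main Agpat3 set did not pass, while dimmer sets passed at -0.59 (adjusted p = 0.0004511) and -0.71 (adjusted p = 0.0001819). For Lpin1 after trilinolein (0.29 ± 0.08, adjusted p = 0.02046) the call was lost without WT 3 or 4 or KO 4, at 0.24 to 0.27.

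**Figure D2:**
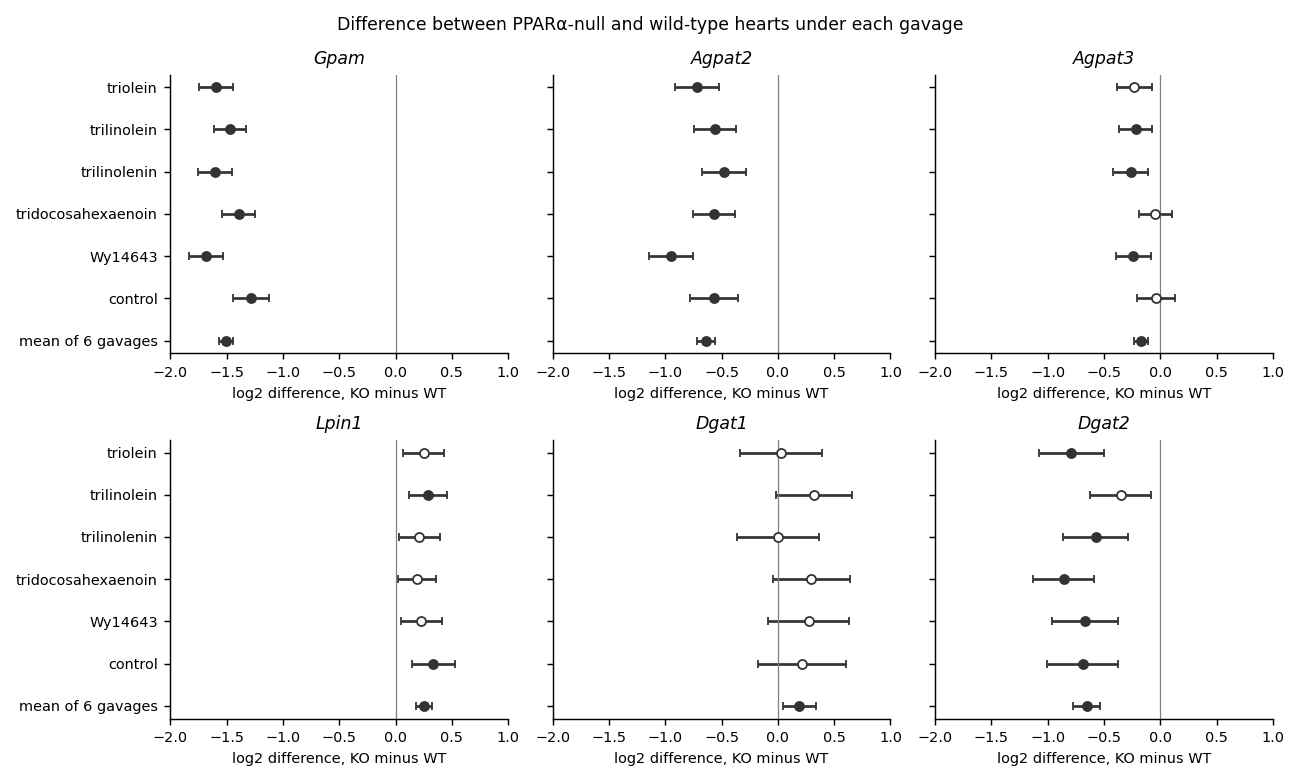
Log2 difference, KO minus WT, of each gene under each gavage and over their mean, with 95% confidence intervals from limma; filled points passed at an adjusted p under 0.05 over 8238 genes. Gpam and Agpat2 lie left of 0 under every gavage, and Lpin1 lies right of 0.

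**Figure D3:**
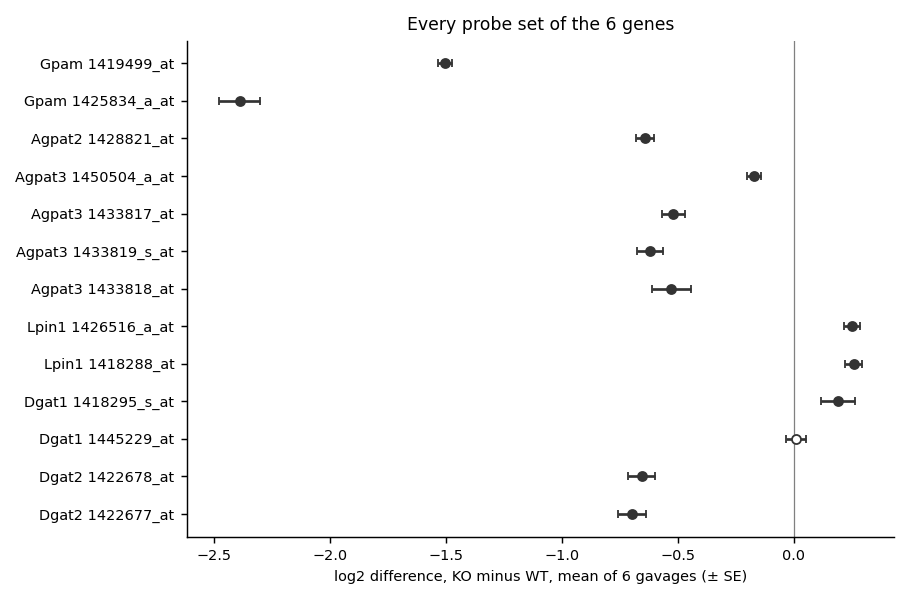
Log2 difference, KO minus WT, over the mean of the 6 gavages for each of the 13 probe sets, with SE; filled points passed at an adjusted p under 0.05. The probe sets of Gpam and of Agpat3 agree in direction but not in size, and the second Dgat1 set lies at 0.01.

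The comparisons of each gavage with control share the control arrays of their genotype. In WT hearts no gene of the 6 passed after triolein (0.0728% of tested genes did), trilinolein (1.25%), tridocosahexaenoin (1.86%) or Wy14643 (0.0607%), nor over the mean of the 4 triglycerides (1.20%). At an unadjusted limma p under 0.05 the counts for these 5 comparisons were 1, 1, 0, 2 and 1 of the 6. After trilinolenin (3.41% of tested genes) 1 gene passed, Gpam, the gene of the first step. Gpam measured 11.32, 11.40, 11.53 and 11.32 log2 units after trilinolenin in WT hearts, against 11.16, 11.24 and 10.92 after control. The groups did not overlap, which 6.48% of tested genes showed in that direction, and the difference was 0.29 ± 0.09 (adjusted p = 0.04567). The call was lost when any 1 of these 7 arrays was left out, at 0.20 to 0.36 with adjusted p of 0.0502 to 0.308. On the other Gpam probe set the difference was 0.67, without passing (adjusted p = 0.1306). The Actb 3′ minus 5′ difference averaged 0.593 in the WT trilinolenin group and 0.793 in WT controls. Of the cell markers only Kdr, 1 of 8 endothelial markers, passed, and it was lower after trilinolenin, at -0.85 ± 0.24 (adjusted p = 0.03742). The other endothelial markers moved both ways without passing, as with Cldn5 (7.05 against 6.45 in controls) and Tie1 (6.70 against 7.01). The part of RNA quality and of the markers in the result was not tested.

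After Wy14643 Gpam measured 11.50, 11.39, 11.36 and 11.57 log2 units in WT hearts, against the same 3 controls, and all 4 were higher. The difference of 0.35 ± 0.09 was the widest Gpam shift among the gavages, but did not pass (adjusted p = 0.07821). Agpat2 was likewise above all WT controls in all 4 hearts, by 0.40 ± 0.11 (adjusted p = 0.2137). Non-overlap of that direction occurred in 3.40% of tested genes. Dgat2 in WT hearts measured 9.86, 9.54, 9.46 and 9.84 log2 units after trilinolenin, against 9.03, 9.35 and 9.35 after control. The trilinolenin values were all higher, by 0.43 ± 0.16, without passing (adjusted p = 0.1421).

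In KO hearts Dgat2, which adds the last acyl chain, rose after trilinolein, to 9.13, 9.14, 8.96, 9.29 and 9.30 log2 units, against 8.70, 8.59, 8.40, 8.56 and 8.52 in KO controls. It also rose after trilinolenin, where it measured 8.93, 9.31, 9.05, 8.94 and 9.29. All 10 values after these oils lay above all 5 controls. The differences were 0.61 ± 0.14 (adjusted p = 0.006831) and 0.55 ± 0.14 (adjusted p = 0.005159), or 1.52-fold and 1.46-fold, and the other Dgat2 probe set gave 0.64 ± 0.14 and 0.60 ± 0.14. Dgat2 was the only 1 of the 6 genes that passed after either oil, where 4.32% and 11.9% of all tested genes passed. Arrays without overlap in that direction were found for 247 of the 8238 tested genes after trilinolein, and for 3.71% after trilinolenin. Leaving out any single array kept both calls, at 0.57 to 0.66 and at 0.50 to 0.59.

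The other gavages did not raise Dgat2 past the test in KO hearts. It measured 8.68, 8.01, 8.21, 8.72 and 8.98 log2 units after triolein, 8.10, 8.80, 8.48, 8.74 and 8.92 after tridocosahexaenoin, and 8.78, 8.79, 8.71, 8.85 and 8.49 after Wy14643. These groups all overlapped the controls, and the first 2 were the most scattered. Their differences from control were -0.04, 0.05 and 0.17, each ± 0.14. Over the mean of the 4 triglycerides Dgat2 differed by 0.29 ± 0.11 (adjusted p = 0.07357), and none of the 6 genes passed where 9.80% of tested genes did, with 1 of the 6 at an unadjusted p under 0.05. No gene of the 6 passed after triolein (1.15%) or Wy14643 (0.0728%) in KO hearts, with 1 and 0 at an unadjusted limma p under 0.05.

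Fabp4, the bright adipocyte marker that capillary endothelium also expresses, differed by 0.20 ± 0.07 after trilinolein (adjusted p = 0.07909) and was higher by 0.28 ± 0.07 after trilinolenin (adjusted p = 0.004586). The other 4 adipocyte markers stayed below the filter. The summed linear signal of the adipocyte markers is almost wholly Fabp4 and so is not a second measure. On the log2 scale it spanned 13.65 to 13.88 after trilinolein and 13.65 to 14.02 after trilinolenin, against 13.47 to 13.62 in KO controls. Of 8 endothelial markers 1 rose and none fell after trilinolein (4.32% of tested genes passed), and 1 rose and 2 fell after trilinolenin (11.9%). Of 7 fibroblast markers 2 fell and none rose after each oil, Col3a1 at -0.82 ± 0.20 and Col1a1 at -0.78 ± 0.20 after trilinolein, and at -0.87 ± 0.20 and -0.72 ± 0.20 after trilinolenin. The Actb 3′ minus 5′ difference averaged 0.726 and 0.705, against 0.799 in KO controls. The part of these in the Dgat2 result was not tested. In bulk tissue fewer cells of a type and less RNA per cell cannot be told apart.

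Gpam in KO hearts moved after tridocosahexaenoin only, of the 5 gavages tested. It measured 9.65, 9.50, 9.56, 9.63 and 9.51 log2 units, against 9.79, 9.93, 9.92, 9.79 and 9.68 in KO controls. All 5 values were lower, a fall of 0.25 ± 0.07 (adjusted p = 0.03509), where 3.54% of all tested genes passed and 1.53% had no overlap in that direction. In the same comparison 2 of 8 macrophage markers rose, Cd14 by 1.16 ± 0.33 and Fcgr3 by 0.60 ± 0.15 (adjusted p = 0.03846 and 0.01484), and their part in the result was not tested. The Gpam call was lost without KO control 1, 2, 3 or 4 or without tridocosahexaenoin 2, 3 or 5, at -0.22 to -0.26 with adjusted p of 0.0542 to 0.145. The other Gpam probe set gave -0.21 without passing (adjusted p = 0.6516). For Agpat3 in KO hearts, the main set differed by -0.09 after trilinolenin, and 2 of its dimmer probe sets fell by 0.51 ± 0.11 and 0.59 ± 0.13 (adjusted p = 0.001735 and 0.00138).

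**Figure D4:**
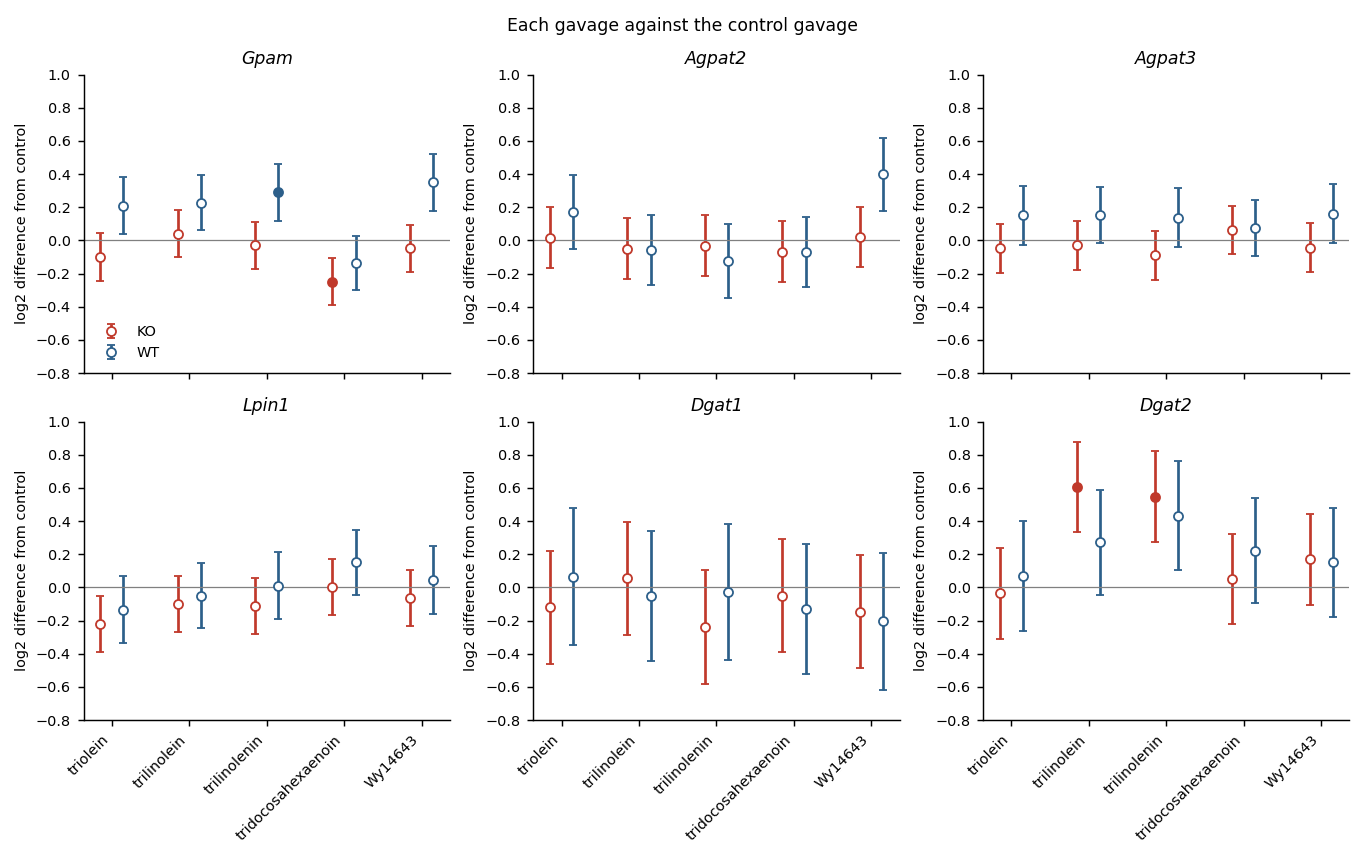
Log2 difference of each gavage from the control gavage of the same genotype, with KO to the left of WT and 95% confidence intervals from limma; filled points passed at an adjusted p under 0.05. Filled points are Gpam after trilinolenin in WT hearts, Gpam after tridocosahexaenoin in KO hearts, and Dgat2 after trilinolein and trilinolenin in KO hearts.

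Whether a gavage acted differently in KO than in WT hearts was tested as a difference of differences. No gene of the 8238 passed in limma for any gavage or for the mean of the oils (0.00%), and at an unadjusted p under 0.05 between 255 and 399 genes did, with at most 2 of the 6. Of the 6 genes Gpam came nearest, with -0.40 ± 0.11 for Wy14643 (adjusted p = 0.6394), and Agpat2 had -0.38 ± 0.14 for Wy14643 (adjusted p = 0.9998). For Dgat2 the differences were 0.34 (95% interval -0.08 to 0.75) for trilinolein and 0.11 (-0.32 to 0.54) for trilinolenin. The Dgat2 response in KO hearts was therefore not shown to differ from that in WT hearts.

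The 4 oils were given at the same volume and time, and each carries a single fatty acid. Oleic, linoleic and linolenic acid have chains of equal length with increasing numbers of double bonds, and docosahexaenoic acid is longer and more unsaturated. There were 6 pairs of oils in each genotype, 12 in all. In WT hearts Gpam was lower after tridocosahexaenoin than after each other oil. It measured 11.20, 10.98, 11.06, 10.65 and 10.93 log2 units after tridocosahexaenoin. It measured 11.46, 11.21, 11.42 and 11.16 after triolein, and 11.27, 11.29, 11.39, 11.34 and 11.36 after trilinolein. Tridocosahexaenoin values overlapped those of triolein through 1 heart at 11.20, and lay apart from those of trilinolein and trilinolenin. How many tested genes lay apart between these oils was not counted, so the separation is a description only.

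The Gpam differences in WT hearts were -0.35 ± 0.08 from triolein (adjusted p = 0.01388, 0.534% of tested genes passing), -0.37 ± 0.07 from trilinolein (adjusted p = 0.004048, 0.765%) and -0.43 ± 0.08 from trilinolenin (adjusted p = 0.0009723, 0.558%). Adjusted over the 12 pairs for this gene the p-values were 0.0001197, 2.948e-05 and 9.633e-06. The call against triolein was lost without WT triolein 1 (-0.30) or 3 (-0.31). On the other Gpam probe set the differences were -0.52, -0.53 and -0.61, without passing. In KO hearts the difference from trilinolein was -0.29 ± 0.07 (adjusted p = 0.04681, 0.388%), lost without trilinolein 2, 3, 4 or 5 or tridocosahexaenoin 1, 2, 3 or 5 at -0.27 to -0.31. For that pair the other Gpam probe set gave -0.23 without passing (adjusted p = 0.7479).

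Dgat2 separated the oils in KO hearts in another order. It was higher after trilinolein than after triolein by 0.64 ± 0.14 (adjusted p = 0.0147, 0.413% of tested genes passing), and higher after trilinolenin than after triolein by 0.58 ± 0.14 (adjusted p = 0.02462, 1.01%). Tridocosahexaenoin was lower than trilinolein (-0.56 ± 0.14, adjusted p = 0.04681), and differed from trilinolenin by -0.50 ± 0.14 (adjusted p = 0.08411, 0.328%). Adjusted over the 12 pairs for Dgat2 these 4 p-values were 0.0002677, 0.000556, 0.0006753 and 0.001952. Triolein hearts 2 and 3 were the lowest, at 8.01 and 8.21, and without either the differences were 0.51 and 0.56 for trilinolein and 0.45 and 0.50 for trilinolenin, none passing. Of 5 smooth muscle markers only Myh11 passed between trilinolenin and triolein, higher by 1.10 ± 0.26 after trilinolenin. Of 8 endothelial markers only Emcn passed, lower at -0.50 ± 0.12 after trilinolenin. Cldn5 went the other way without passing, at 7.90 after trilinolenin against 7.21 after triolein. Ppargc1a was higher by 0.70 ± 0.17 after tridocosahexaenoin than after trilinolein. The part of the markers was not tested. The trilinolenin call was also lost without trilinolenin 2 (0.53) or 5 (0.54). Against tridocosahexaenoin the trilinolein call was lost without trilinolein 1, 2, 3, 4 or 5 (-0.52 to -0.61) or tridocosahexaenoin 1 (-0.43) or 3 (-0.52). For that pair the other Dgat2 probe set gave -0.48 without passing (adjusted p = 0.1303).

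Trilinolein and trilinolenin were not distinguished by Gpam or Dgat2. In KO hearts trilinolenin minus trilinolein was -0.07 (95% interval -0.21 to 0.07) for Gpam and -0.06 (-0.33 to 0.21) for Dgat2. In WT hearts it was 0.06 (-0.09 to 0.21) and 0.16 (-0.13 to 0.45). No tested gene passed in limma between these 2 oils in either genotype (0.00%), and 363 in KO and 263 in WT hearts had an unadjusted p under 0.05, none of the 6 among them. None of the 6 genes passed between trilinolein and triolein (0.0364%) or trilinolenin and triolein (0.522%) in WT hearts, or between tridocosahexaenoin and triolein in KO hearts (0.0121%), with 1, 2 and 2 of them at an unadjusted limma p under 0.05.

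**Figure D5:**
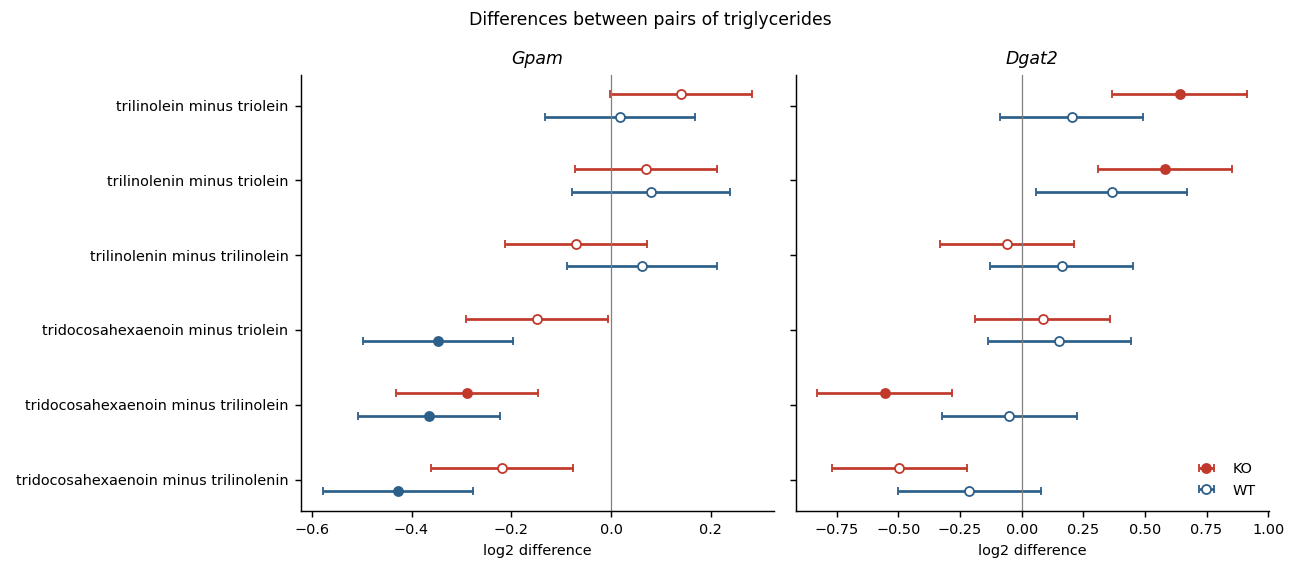
Log2 differences between pairs of oils for Gpam and Dgat2, KO above WT in each pair, with 95% confidence intervals from limma; filled points passed at an adjusted p under 0.05. Gpam in WT hearts is lower after tridocosahexaenoin than after each other oil, and in KO hearts it passed only against trilinolein. Dgat2 in KO hearts is higher after trilinolein and trilinolenin than after triolein.

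The doses of the oils and of Wy14643 differ, and a difference between them cannot be told apart from one of dose. In WT hearts Agpat2 averaged 8.20 log2 units over the 4 oils and 8.62 ± 0.16 (SD, n = 4) after Wy14643, a difference of -0.42 ± 0.08 (SE, adjusted p = 0.001032). Agpat2 was the only gene of the 6 to pass on its main probe set, where 3.47% of tested genes did. Agpat3 passed on dimmer probe sets, at -0.39 (adjusted p = 0.01584) and -0.39 (adjusted p = 0.03907), though not on its main or dimmest set. Of 8 endothelial markers only Cldn5 passed, higher after the oils by 1.15 ± 0.27 (adjusted p = 0.008254). Emcn went the other way without passing, at 7.62 to 7.85 after the oils against 7.975 after Wy14643. Fabp4, the only bright adipocyte marker, was higher by 0.32 ± 0.06 (adjusted p = 0.0007139). Ppargc1a, listed as a brown adipocyte marker, was lower at -0.76 ± 0.15 (adjusted p = 0.001345). The part of the markers in the result was not tested. Gpam averaged 11.25 over the oils and 11.45 after Wy14643 (-0.20 ± 0.06, adjusted p = 0.05256). In KO hearts none passed (1.03%) or had an unadjusted limma p under 0.05, and Agpat2 differed by -0.05 (95% interval -0.20 to 0.09).

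Ranked by group mean, all 6 WT groups stood above all 6 KO groups for Gpam and Agpat2. For Gpam the order in WT hearts was Wy14643, trilinolenin, trilinolein, triolein, control and tridocosahexaenoin, at 11.45, 11.39, 11.33, 11.31, 11.10 and 10.97, and each group overlapped the next. In KO hearts only tridocosahexaenoin, the lowest at 9.57, did not overlap its neighbour, triolein at 9.72. For Dgat2 trilinolein (9.16) and trilinolenin (9.10) led the KO groups and stood clear of Wy14643 at 8.73. How many tested genes had such gaps between neighbouring groups was not counted.

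Over the 55 arrays Gpam correlated with Agpat2 at r = 0.88 and with Dgat2 at 0.76, values that carry the genotype difference. After each group's mean was removed the same correlations were 0.01 and -0.18, and the 15 pairs of the 6 genes spanned -0.24 (Agpat3 with Dgat2) to 0.27 (Dgat1 with Dgat2). The genes most like Gpam over the 55 arrays were Ephx2 (r = 0.985), Cpt2 (0.982) and Decr1 (0.979). For Agpat2 they were Mlycd (0.904), Lpcat3 (0.90) and Lgals4 (0.891), and for Dgat2 Aqp1 (0.868), Npc1 (0.852) and Slc27a1 (0.806). Within groups Aqp1 and Npc1 still correlated with Dgat2 at 0.56 and 0.65, Slc27a1 at 0.20. For the other genes the closest were weaker, Hadha with Agpat3 (0.721), Hmox2 with Lpin1 (0.718) and Aamp with Dgat1 (0.658). The arrays share genotype and gavage, so these values describe the set of arrays and have no test.

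Among 18 further genes of triglyceride assembly, 11 were bright enough to test. Over all gavages 2 were lower and 2 higher in KO hearts, where 16.1% of all tested genes were lower and 22.9% higher, so that the share called, 4 of 11, was near the 39.0% of all genes. They had a median log2 difference of 0.05 beside 0.02 for all tested genes. Gpat3, a microsomal glycerol-3-phosphate acyltransferase and so the counterpart of Gpam, was lower, with a difference of -0.94 ± 0.06 (adjusted p = 6.899e-18), as was Fitm2, a lipid droplet assembly protein, at -0.39 ± 0.04 (adjusted p = 2.055e-12). Gpd1l, related to the dehydrogenase that makes glycerol-3-phosphate, was higher by 0.20 ± 0.02 (adjusted p = 1.748e-09). In KO hearts 2 of the 11 were lower after trilinolenin than after control, Gpat3 at -0.54 ± 0.14 and the acyltransferase Lclat1 at -0.42 ± 0.11 (adjusted p = 0.007735 and 0.008909), where 11.9% of tested genes passed and 7.30% were lower.

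In the lists of neighbouring pathways genes were called in both directions over all gavages, as over the whole array (16.1% lower, 22.9% higher). Of 5 tested acyl-CoA synthetases Slc27a1, which couples uptake to activation, was lower in KO hearts over all gavages (-0.89 ± 0.05) and Acsl6 higher (1.31 ± 0.06). Of 15 phospholipid genes 4 were lower and 3 higher, led by choline kinase Chkb (-0.82 ± 0.05) and by Pcyt2 of the ethanolamine branch (0.44 ± 0.05). Of 7 diacylglycerol kinases and phosphatases 3 were lower and 1 higher, led by Dgkz (-0.23 ± 0.05). Of 14 lipogenic regulators and enzymes 5 were lower and 6 higher, among them malic enzyme Me1 (-0.95 ± 0.04) and Pparg (0.85 ± 0.11).

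The list of lipolysis and lipid droplet genes holds droplet coat proteins as well as lipases, so its counts do not measure lipolysis. It had 5 of 10 genes lower and 3 higher in KO hearts over all gavages, beside the same 16.1% and 22.9% of all tested genes. The droplet coat protein Plin5 differed by -3.12 ± 0.08, Cidea by -0.77 ± 0.05 and hormone-sensitive lipase Lipe by -0.66 ± 0.06. In KO hearts 6 of the 10 rose and none fell over the mean of the 4 oils, where 9.80% of tested genes passed and 4.27% rose, with a median of 0.26 beside -0.01 for all tested genes. Plin4 rose by 0.59 ± 0.11 and Lipe by 0.52 ± 0.11 (adjusted p = 0.000324 and 0.00202). None of the 6 synthesis genes passed in that comparison on its main probe set. Dimmer Agpat3 sets were lower after the oils, at -0.29 (adjusted p = 0.02903) and -0.35 (adjusted p = 0.02113).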

How the data were processed

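Total RNA of 55 mouse hearts was measured on Affymetrix mouse genome arrays, 1 heart to an array per the labels. The deposited values are log2 signals made with GCRMA 2.2.0, per the submitters' processing notes, and were used as deposited; scanner software is not given in the sources used here. GCRMA corrects background, equalises the arrays' distributions and summarises probes, so levels are not comparable between probe sets and only differences of 1 probe set are read. Arrays have no read depth, and their number limits the precision. Identical values made up at most 0.208% of those of any 2 arrays.

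Of 45101 probe sets, 34958 carried 1 gene symbol, 932 several and 9211 none, by GEO's platform annotation. Each gene took its probe set of highest mean. The 8238 genes with a linear signal over 20 in at least 3 arrays were fitted in limma 3.58.1 (R 4.3.3), with 1 mean for each of the 12 groups and 43 residual degrees of freedom. Tests were two-sided, adjusted by Benjamini-Hochberg within each comparison and called at an adjusted p under 0.05. On simulated data of 8238 genes, 71.2% of log2 changes of 0.5 were recovered for KO against WT controls and 77.6% for KO trilinolein against control. Alternatives changed the filter, probe set, normalization, array weights, variance prior, replicate block, the groups fitted and each single array.

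Named genes are the 6 genes, up to 3 called genes of largest difference in each list, and the 3 genes of highest Pearson correlation with each. The genes and lists were chosen with earlier results of these data known. Replicate numbers were not taken to pair the hearts. The residuals of arrays with the same number correlated at a mean of 0.01 over 281 pairs, and with different numbers at -0.0024 over 1103. These pairs mixed KO and WT hearts, so pairing within a genotype was not tested. No scan dates or batches were given.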

Additional observations from a re-analysis of the deposited data

Results flagged for a closer look

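Each of the 6 genes was looked at in the groups of 4 or 5 arrays. In 4 of these 66 sets of values 1 heart stood far from the rest, where chance gives about 1 in 20. Gpam was lowest in KO trilinolein heart 1, at 9.727 log2 units, with the nearest of its group at 9.873. Agpat3 was highest in WT trilinolenin heart 1, at 9.4, with the nearest at 9.324. Dgat1 was highest in KO trilinolenin heart 1, at 5.891, with the nearest at 5.459. Dgat2 was lowest in WT trilinolein heart 5, at 9.236, with the nearest at 9.527.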

How the results depend on the processing

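Of 40 differences of the 6 genes that passed, 937 of 1056 repeats under other settings kept the call, 119 lost it and none reversed; among 194 that did not pass, 41 of 4467 repeats passed, and in 235 the sign changed without a call. The number of the 6 genes that passed changed as follows, and the cause was not tested unless fewer groups or arrays were fitted. For trilinolenin in WT hearts, 1 became 0 with no filter, with quantile normalization repeated and with only the compared groups fitted. For Wy14643 in WT hearts, 0 became 1 with the filter at 100 or with a trended, robust prior, and 2 with array weights. In KO hearts trilinolenin went to 2 with all probe sets averaged; tridocosahexaenoin had 0 instead of 1 with no filter, with probe sets averaged, with only the compared groups or without the 3 arrays of weight under 0.5 (an alternative chosen after seeing the data); and the mean of the oils had 2 with probe sets averaged and 1 without those arrays, instead of 0. With probe sets averaged, the 2 genes for the KO mean of the oils were Agpat3 (-0.22, adjusted p = 0.04626) and Dgat2 (0.31, adjusted p = 0.04894). Oils against Wy14643 in WT hearts gave 2 instead of 1 with the filter at 100, probe sets averaged, normalization repeated or the trended prior. The added gene was Agpat3 with probe sets averaged (-0.33, adjusted p = 0.01651), and Gpam under the others. Among pairs of oils, the WT count of 3 became 1 with probe sets averaged and 0 with only the compared groups, and the KO count of 4 became 2 with no filter, probe sets averaged, array weights or without the 3 arrays, and 0 with only the compared groups. Single genotype calls also changed: Lpin1 after control was lost with no filter (adjusted p = 0.06985), Dgat1 over all gavages with no filter, normalization repeated or array weights (0.05914, 0.06046 and 0.05788), and Agpat3 after trilinolein and after Wy14643 with no filter, normalization repeated or only the compared groups. Agpat3 after triolein passed with the filter at 100, probe sets averaged or the trended prior, Dgat2 after trilinolein with array weights or only the compared groups, and Lpin1 after triolein and after Wy14643 without the 3 arrays. With the replicate block the KO pair count was 2 instead of 4, the Lpin1 control difference 0.31 (adjusted p = 0.0663), and the Agpat3 calls after trilinolein and Wy14643 were lost at -0.22 and -0.23.

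Leaving out 1 array at a time gave counts between 3 and 4 for KO against WT after control, triolein, trilinolenin, tridocosahexaenoin and Wy14643, 2 to 4 after trilinolein and 5 to 6 over all gavages. The range was 0 to 0 for WT trilinolenin, 1 to 1 for KO trilinolein and trilinolenin, 0 to 1 for KO tridocosahexaenoin and the KO mean of the oils, 1 to 2 for oils against Wy14643 in WT hearts, 2 to 3 for WT pairs and 2 to 4 for KO pairs. The KO mean of the oils reached 1, Dgat2 at 0.32, without triolein 2 or tridocosahexaenoin 1. Oils against Wy14643 reached 2, Gpam at -0.21 to -0.22, without WT trilinolenin 3, triolein 1 or 3, or tridocosahexaenoin 1. By Spearman correlation 1 of the 3 most alike genes stayed for Gpam, Lpin1 and Dgat1. Groups of 3 to 5 arrays limit what can be seen: simulated log2 changes of 0.3 were recovered in 27.2% of genes for KO against WT controls and 41.6% for KO trilinolein against control.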
